A study of Mus musculus with 18 samples.

Results

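The nuclear receptors are transcription factors with a shared DNA-binding domain, and most members bind a small lipophilic ligand. Their transcripts were followed in cultured mouse peritoneal macrophages from a study of one member, the pregnane X receptor PXR (gene Nr1i2). The members were the 46 genes of a fixed list of classic mouse nuclear receptor symbols that have a row in the gene table, out of 21831 rows in all. The list follows gene names and not measured values, and 2 other classic receptor symbols that have a row are not on it and were not analysed here.

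All mice were C57BL/6 and 6 weeks old. The macrophages carried either floxed PXR alleles (called FF below) or a myeloid deletion of PXR (called dMye below). The labels name no Cre line, and nothing in them says that the samples of a group came from separate animals. The p-values therefore reflect sample-to-sample spread, which may be technical. Cells elicited with 1 mL of 3% thioglycollate 3 days before collection were left to attach for 4 h and then received the PXR ligand PCN at 20 µM or the solvent DMSO for 12 h. Total RNA was sequenced from 18 libraries, with 3 in FF_DMSO, 3 in FF_PCN, 6 in dMye_DMSO and 6 in dMye_PCN.

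Nuclear receptors regulate transcription as monomers, homodimers or heterodimers with a retinoid X receptor (RXR), and bind variants of a short hexamer half-site. In macrophages the family is known for the liver X receptors, which sense oxysterols and drive cholesterol efflux genes, for PPARs, which sense fatty acids, and for the glucocorticoid receptor, which represses inflammatory genes. Ligands change receptor activity more directly than receptor transcript levels, so the transcript values below describe how much receptor RNA was present and not how active a receptor was.

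The libraries held 21993697 to 30228017 counts, and levels are given as CPM, a count scaled to its library total, of which 1 CPM stood for 21.99 to 30.23 counts and a floor of 3 counts for 0.0992 to 0.136 CPM. Macrophage markers were abundant in every group, with 10 of 10 tested and a summed level between 6170 and 10799 CPM over all libraries. The genotypes differed in more than PXR. The summed level of 4 Y-linked genes was 113 to 137 CPM in the FF libraries and 0.463 to 1.49 CPM in the dMye libraries, so a difference between genotypes and a difference between sexes cannot be told apart. Of 16 mesothelial cell and fibroblast markers none was at 0 in any group, and their summed level was 201 to 203 CPM in FF_DMSO, 160 to 179 CPM in FF_PCN, 691 to 873 CPM in dMye_DMSO and 681 to 800 CPM in dMye_PCN. Among replicates, dMye_DMSO replicate 5 stood apart from its group: its chi-square per gene against the other dMye_DMSO libraries was 20.8 to 43.7, and that among those others was 4.92 to 24.0. Without it, 11 receptors were called between genotypes under DMSO (10 with it), 0 for PCN in dMye and 1 for the interaction, as with it. In dMye_PCN, replicate 5 gave 11.1 to 29.8 against the others, which gave 3.75 to 10.7 among themselves. Without that library the Rara call between genotypes under PCN was lost, and Vdr was called there (adjusted p = 0.049, edgeR). In FF_PCN, replicate 2 gave 9.16 and 10.3, and the other pair 4.42. Calls lost without FF_PCN replicate 2 are given with their genes below. In bulk RNA, fewer cells of a type and less RNA per cell cannot be told apart.

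Of the 46 receptor genes, 33 had enough counts to be tested, 4 were low, and 9 were below detection, with at most 3 counts in every library. PXR itself was below detection. Nr1i2 (chr16:38248323-38294824, minus strand, GRCm38) had 0, 2 and 0 counts in the FF_DMSO libraries and 0, 1 and 0 in the FF_PCN libraries. It had 2 counts in 1 dMye_DMSO library, 3 counts in 1 dMye_PCN library and 0 in each of the other dMye libraries. With 8 counts in all, 3 in FF and 5 in dMye, a loss of the targeted transcript was not detectable at this depth, and the genotype labels cannot be checked with it. The floor of 3 counts puts the level that could have been missed at up to 0.136 CPM in the shallowest library.

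The other 8 receptors below detection were mostly tissue-restricted ones. Nr0b1 (DAX1) and Nr0b2 (SHP), the atypical members without a classic DNA-binding domain, had 0 counts in all 18 libraries. The hepatocyte nuclear factor genes Hnf4a and Hnf4g totalled 2 and 5 counts. Nr2e1 (TLX, a neural stem cell receptor) totalled 19 counts, never more than 3 in a library. Nr2e3, a photoreceptor gene, totalled 2 counts, Esrrb 3 and Nr5a1 (SF1, a steroidogenic factor) 6. The 4 low genes were Ppara with 74 counts in all and at most 14 in a library, Rxrg with 27 and at most 11, Esrrg with 27 and at most 7, and Nr5a2 with 18 and at most 9. The fatty acid receptor of liver, Ppara, was therefore close to the floor in these macrophages, and Rxrg, the third RXR gene, likewise.

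Levels between genes were compared as CPM per kb of union exon, averaged over the 4 group means. The leading receptor was Pparg at 36.9 CPM per kb, followed by the liver X receptor gene Nr1h2 (LXRβ) at 30.7, Rxrb at 20.8, Nr1d2 (REV-ERBβ) at 19.9, Rxra at 18.5 and Nr1h3 (LXRα) at 18.1. Both LXR genes and both of the expressed RXR genes thus stood among the first 6. The next group held the glucocorticoid receptor gene Nr3c1 at 9.99 CPM per kb, Nr2f6 at 8.02, Esrra at 7.40, Ppard at 7.18, Rarg at 6.02, Rara at 4.71, Nr2c2 at 4.70, Nr2c1 at 4.35, Rora at 3.93, Nr1d1 (REV-ERBα) at 3.29 and Thra at 3.08. These 17 genes were the ones at or above 1 CPM per kb, and together with Nr6a1 they had at least 100 counts in every library.

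The remaining tested genes ran from Nr1i3 at 0.805 CPM per kb down to Rorb at 0.0378 CPM per kb. They included the immediate-early orphan receptors Nr4a1 at 0.537, Nr4a2 at 0.329 and Nr4a3 at 0.223 CPM per kb, the oestrogen receptor genes Esr1 at 0.307 and Esr2 at 0.133 CPM per kb, and the vitamin D receptor gene Vdr at 0.0785 CPM per kb. Exons of 7 members overlap a protein-coding gene on the other strand, and whether the counting used strand is not given in the sources used here. For Nr1i3 (CAR), the xenobiotic receptor most related to PXR, 74.9% of the exon length lies within Tomm40l, so its level is uncertain. The same holds for Nr2f6, with 54.4% within Ocel1, for Rarb, with 34.1% within Top2b, and for Nr2c2, with 30.7% within Mrps25.

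**Figure D1:**
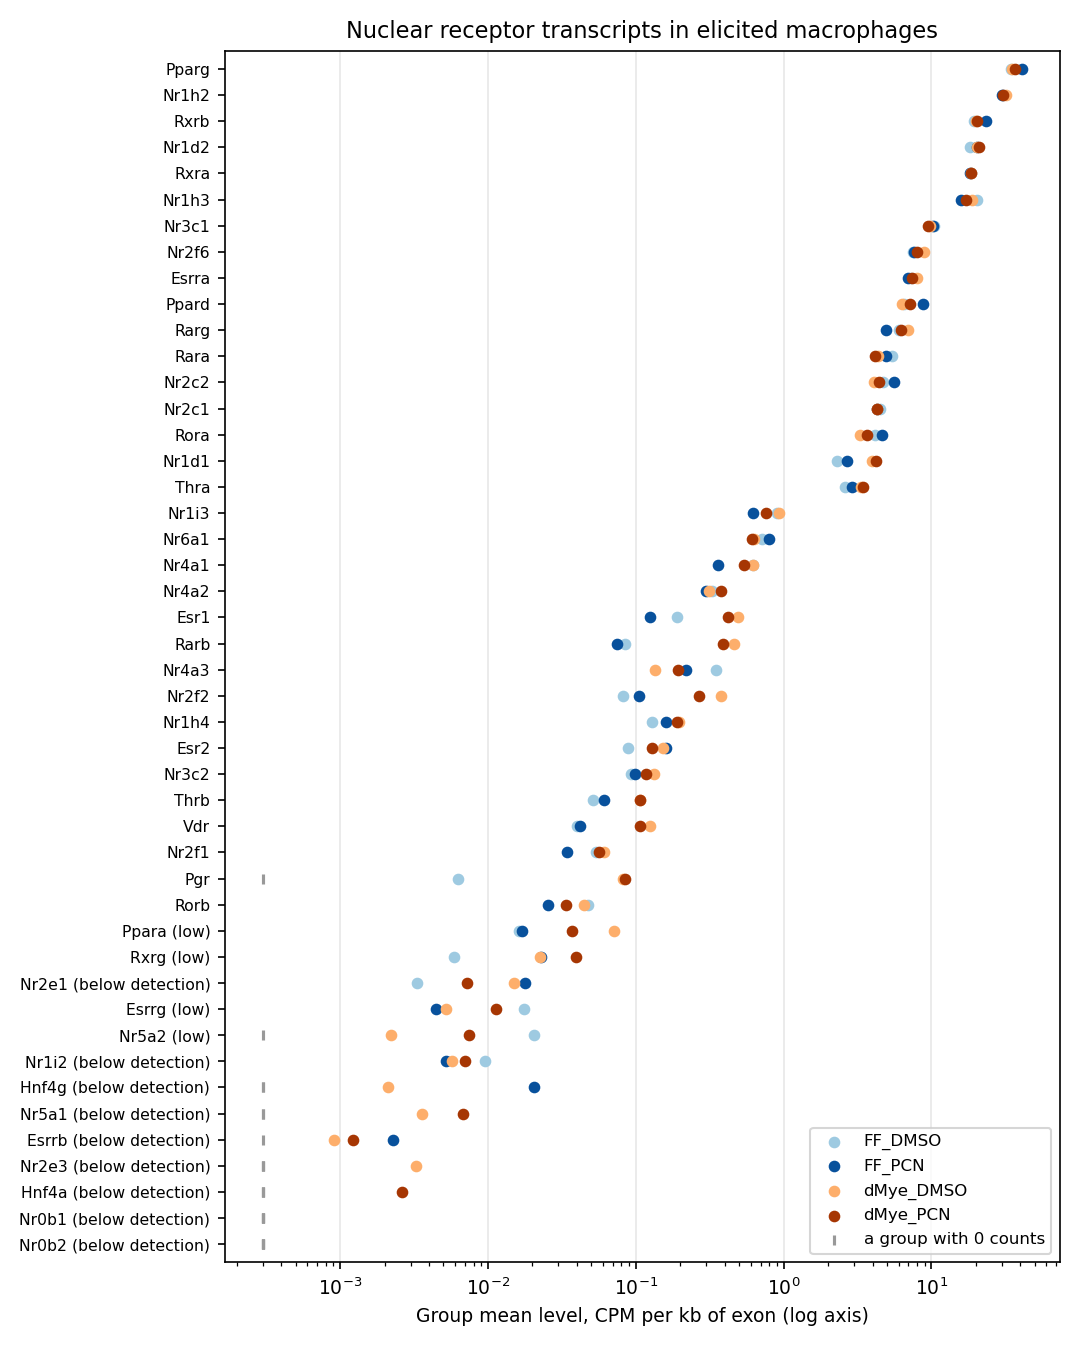
Group mean level of the 46 receptor genes in CPM per kb of union exon (log axis), ordered by the average of the 4 group means. Each dot is the mean of 3 FF or 6 dMye libraries, and grey ticks stand for a group with 0 counts. Pparg and Nr1h2 lead, the dots of the 17 genes at or above 1 CPM per kb lie close together, and those of Esr1, Rarb, Nr2f2, Vdr and Pgr are split by genotype.

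PCN against DMSO asked whether a PXR ligand moved receptor transcripts. In FF macrophages, 4 of the 33 tested receptors changed (edgeR quasi-likelihood test, Benjamini-Hochberg adjusted p under 0.05 over all 13409 tested genes), against 13.8% of all tested genes. Ppard, Pparg and Rxrb rose (6.82% of all genes rose) and Nr1h3 fell (6.98% fell). Another 6 receptors had only an unadjusted p under 0.05, making 10 in all (30.3% of 33, beside 26.5% of all tested genes). The median log2 fold change of the family was 0.007, beside 0.009 for all genes. The share of receptors that changed, 12.1%, was near the background.

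These 4 genes are shown with the 250 bases before their annotated starts, since they moved in the same comparison and include an RXR beside 3 receptors that pair with RXRs. The sequences are RefSeq's for GRCm38.p6, read 5′ to 3′ on the gene's strand. Capitals mark the half-site AGGTCA on either strand. Ppard lies at chr17:28232504-28232753 (plus strand), Rxrb at chr17:34031562-34031811 (plus), the first of the 3 Pparg starts at chr6:115360894-115361143 (plus), the second at chr6:115362099-115362348 (plus), and the first of the 2 Nr1h3 starts at chr2:91195117-91195366 (minus).
Ppard: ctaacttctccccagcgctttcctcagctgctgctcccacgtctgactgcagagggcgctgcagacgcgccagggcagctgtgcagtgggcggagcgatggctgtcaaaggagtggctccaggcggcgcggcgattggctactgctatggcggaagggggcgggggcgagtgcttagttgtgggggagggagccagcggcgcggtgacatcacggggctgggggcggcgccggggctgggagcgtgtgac
Rxrb: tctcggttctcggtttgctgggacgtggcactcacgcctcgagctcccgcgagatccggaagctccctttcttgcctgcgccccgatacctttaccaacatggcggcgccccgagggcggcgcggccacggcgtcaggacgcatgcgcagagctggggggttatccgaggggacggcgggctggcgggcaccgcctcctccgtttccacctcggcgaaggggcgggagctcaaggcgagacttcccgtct
Pparg, first start: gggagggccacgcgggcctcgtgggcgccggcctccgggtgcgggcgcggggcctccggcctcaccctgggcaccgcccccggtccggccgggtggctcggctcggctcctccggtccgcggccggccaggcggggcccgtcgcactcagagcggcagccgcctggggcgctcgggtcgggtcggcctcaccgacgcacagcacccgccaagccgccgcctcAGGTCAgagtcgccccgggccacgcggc
Pparg, second start: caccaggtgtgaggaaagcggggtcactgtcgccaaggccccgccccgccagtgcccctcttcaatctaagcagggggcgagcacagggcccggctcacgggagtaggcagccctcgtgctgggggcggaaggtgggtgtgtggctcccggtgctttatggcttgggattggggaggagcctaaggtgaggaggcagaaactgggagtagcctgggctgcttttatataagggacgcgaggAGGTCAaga
Nr1h3: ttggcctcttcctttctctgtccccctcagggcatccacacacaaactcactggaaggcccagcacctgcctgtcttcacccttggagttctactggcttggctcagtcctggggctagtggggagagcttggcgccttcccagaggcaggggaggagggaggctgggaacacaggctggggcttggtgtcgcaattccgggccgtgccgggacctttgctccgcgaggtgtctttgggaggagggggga

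Windows of 300 bases, from 250 before to 50 after a start, were searched on both strands for AGGTCA, for its direct repeat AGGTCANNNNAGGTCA (DR4, which contains the half-site), for the E-box CACGTG, for the cAMP response element TGACGTCA and for the AP-1 site TGANTCA. The half-site occurred in 16.3% of the 32851 windows of all genes and in 12 of the 63 windows of the 42 receptors that had an entry. In Pparg it began 28 bases before the first start and 9 bases before the second. None of the 5 motifs was found in the Ppard, Rxrb or Nr1h3 windows. The E-box was in 7.15% of all windows and 6 receptor windows, the AP-1 site in 7.81% and 3, the cAMP response element in 1.79% and 2, and DR4 in 0.0152% and 0.

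Ppard (PPARδ) is the broadly expressed fatty acid receptor. In FF_DMSO its level was 50.8, 47.4 and 49.2 CPM, and in FF_PCN 65.2, 70.8 and 60.5 CPM. All 3 PCN libraries lay above all 3 DMSO libraries, and the fitted log2 fold change was 0.44 (SE 0.09, adjusted p = 0.0023, edgeR). In dMye the level was 40.6 to 53.0 CPM with a median of 48.8 under DMSO, and 44.4 to 57.2 CPM with a median of 55.3 under PCN. Here the groups overlapped, and the log2 fold change was 0.17 (SE 0.07, adjusted p = 0.20). The difference between the genotypes in the PCN effect was -0.27 (SE 0.11, adjusted p = 0.30), which did not pass the test.

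Pparg (PPARγ) is the PPAR of alternatively activated macrophages and of adipocytes. Its level was 99.7, 106 and 103 CPM in FF_DMSO and 123, 125 and 115 CPM in FF_PCN. The libraries did not overlap, and the log2 fold change was 0.26 (SE 0.07, adjusted p = 0.012, edgeR). The call was lost without FF_DMSO replicate 1 or FF_PCN replicate 2, where the adjusted p was 0.059 and 0.055, within a range of 0.0028 to 0.059 over all alternatives. In dMye, Pparg was at 92.6 to 109 CPM (median 104) under DMSO and at 103 to 116 CPM (median 110) under PCN. Those ranges overlapped, with a log2 fold change of 0.08 (SE 0.05, adjusted p = 0.41). The third PPAR gene, Ppara, was too low to test, with 5 counts over the FF_DMSO libraries and 5 over the FF_PCN libraries.

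Rxrb encodes RXRβ, a heterodimer partner of PXR, the PPARs, the LXRs and the retinoic acid receptors. It stood at 74.9, 77.7 and 77.3 CPM in FF_DMSO and at 93.3, 93.8 and 93.1 CPM in FF_PCN. The FF_PCN libraries were all higher and spread by less than 1 CPM, and the log2 fold change was 0.31 (SE 0.06, adjusted p = 0.00062, edgeR). In dMye it was 75.6 to 83.8 CPM (median 80.6) under DMSO and 77.0 to 83.7 CPM (median 80.2) under PCN. Those ranges nearly coincided, and the log2 fold change of 0.00 had a normal 95% interval of -0.08 to 0.08. Rxrb was the 1 receptor of 33 whose PCN effect differed between the genotypes by the test of the difference, at -0.31 on the log2 scale (SE 0.07, adjusted p = 0.026, edgeR), against 1.42% of all tested genes (0.746% higher and 0.671% lower). That call was lost in 8 of 24 alternatives, with the value between -0.32 and -0.27 and the adjusted p between 0.0011 and 0.096. The losses came with no filter on low counts, without each of the 6 FF libraries in turn, and without dMye_DMSO replicate 2. Because the Y-linked genes also split the genotypes, a PCN effect differing by genotype and one differing by sex cannot be told apart.

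Rxra, the other RXR gene that was well expressed, was at 98.0, 99.4 and 106 CPM in FF_DMSO and at 102, 99.9 and 98.3 CPM in FF_PCN. In dMye it ran from 83.8 to 110 CPM (median 107) under DMSO and from 93.0 to 110 CPM (median 101) under PCN. All groups overlapped, and the PCN effect was 0.01 in FF (interval -0.14 to 0.16) and 0.00 in dMye on the log2 scale. The test of the difference between the genotypes gave -0.01 (adjusted p = 0.99, edgeR).

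Nr1h3 encodes LXRα, the liver X receptor that in many tissues is itself an LXR target. It was at 53.3, 52.9 and 48.5 CPM in FF_DMSO and at 37.9, 37.9 and 43.2 CPM in FF_PCN. All 3 PCN libraries lay below the DMSO libraries, and Nr1h3 fell by 0.36 on the log2 scale (SE 0.09, adjusted p = 0.0094, edgeR). In dMye the range was 45.3 to 52.6 CPM (median 46.2) under DMSO and 36.8 to 47.6 CPM (median 43.7) under PCN. The groups overlapped, with a log2 fold change of -0.15 (SE 0.06, adjusted p = 0.27), and the difference between the genotypes was 0.21 (SE 0.11, adjusted p = 0.43). Nr1h2, the LXRβ gene, was at 102, 102 and 105 CPM in FF_DMSO and at 99.4, 101 and 99.8 CPM in FF_PCN. Its libraries did not overlap either, yet the log2 fold change was -0.02 (interval -0.16 to 0.12).

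Beside these FF values, other cells' markers moved with PCN, where 13.8% of all tested genes were called (6.82% higher and 6.98% lower). Of 10 B cell markers 4 fell in FF, with a summed level of 22.2 to 27.4 CPM in FF_DMSO and 10.8 to 14.8 CPM in FF_PCN, and of 6 tested neutrophil markers 2 fell, with Ly6g at 0. Of the 10 macrophage markers 7 fell and 1 rose, from a summed 10080 to 10799 CPM to a summed 7155 to 7647 CPM. Of 16 mesothelial cell and fibroblast markers 1, Wt1, was called lower. Among those 16, 0 had a positive log2 fold change, beside 6906 of 13409 tested genes. Their summed level was 201 to 203 CPM in FF_DMSO and 160 to 179 CPM in FF_PCN. The part of these shifts in the receptor values was not tested.

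**Figure D2:**
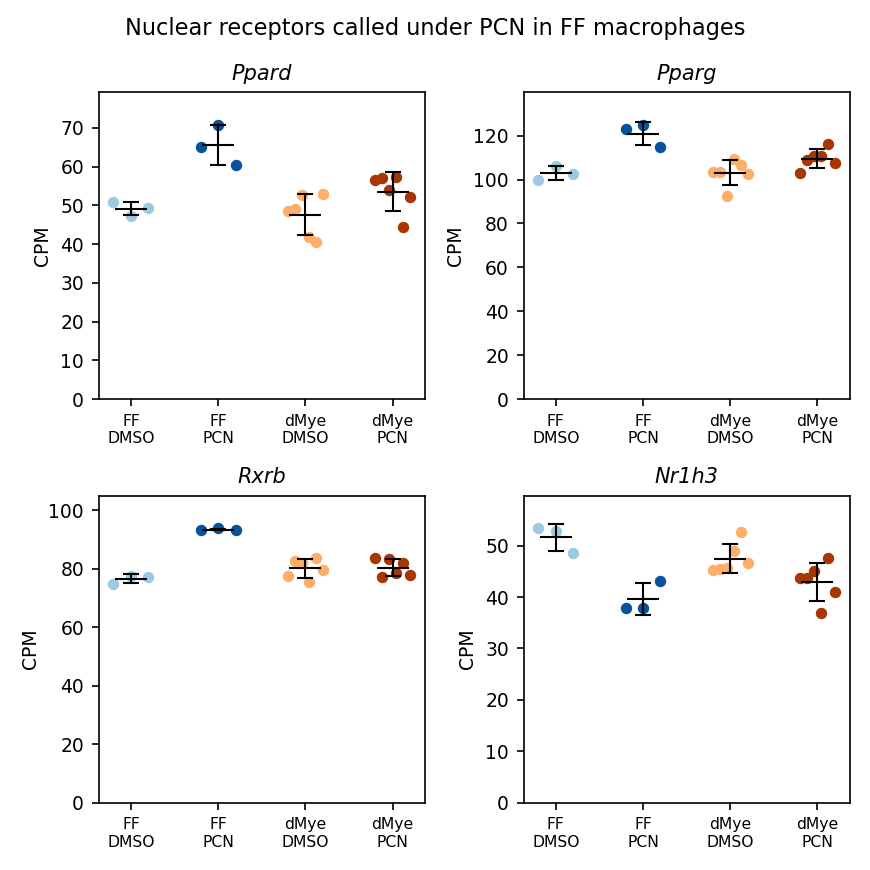
Level in CPM of the 4 receptors that changed under PCN in FF macrophages, 1 dot per library (3, 3, 6 and 6), with the group mean and SD in black. In FF the PCN dots of Ppard, Pparg and Rxrb lie above the DMSO dots and those of Nr1h3 below, while in dMye the dots overlap in all 4 panels.

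The other receptors tested in FF gave no call. Of the 33, 9 had FF_PCN libraries that did not overlap with FF_DMSO, beside 33.4% of all tested genes, and 5 of these 9 were not called: Thra, Nr1h2, Nr1i3, Nr2c2 and Esr1. Nr1i3 had a log2 fold change of -0.50 (SE 0.20, adjusted p = 0.12, edgeR). Tomm40l, which overlaps most of its exon length, fell by 0.40 (SE 0.10, adjusted p = 0.011, edgeR), from a mean of 17.6 to 13.1 CPM. The part of Tomm40l in the Nr1i3 value was not tested. Nr2c2 (TR4, an orphan receptor) had a mean of 70.5 CPM in FF_DMSO and 83.6 CPM in FF_PCN, with a log2 fold change of 0.27 (SE 0.10, adjusted p = 0.075). Rarg, the retinoic acid receptor γ gene, was at 27.0, 22.8 and 27.2 CPM in FF_DMSO and at 19.6, 20.3 and 23.2 CPM in FF_PCN, with 1 library of each group overlapping. Its log2 fold change was -0.26 (SE 0.09, adjusted p = 0.066), and over the alternatives the adjusted p ran from 0.031 to 0.20.

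The glucocorticoid receptor gene Nr3c1 was at 76.8, 81.1 and 83.6 CPM in FF_DMSO and at 77.7, 79.9 and 77.6 CPM in FF_PCN. In dMye it was at 66.2 to 87.9 CPM (median 74.3) under DMSO and at 69.1 to 82.0 CPM (median 70.7) under PCN. The groups overlapped throughout, and the PCN effect on the log2 scale was -0.01 in FF (interval -0.17 to 0.14) and -0.04 in dMye. Nr4a1 (NUR77), which is induced quickly by many stimuli, was at 1.74, 1.87 and 2.95 CPM in FF_DMSO and at 1.79, 1.15 and 0.826 CPM in FF_PCN. In dMye it was at 1.80 to 2.59 CPM (median 2.19) under DMSO and at 1.36 to 2.55 CPM (median 1.90) under PCN. The FF groups overlapped in 1 PCN library, and the log2 fold change of -0.77 (SE 0.30, adjusted p = 0.090) did not pass. Without FF_PCN replicate 1 it was -1.13 with an adjusted p of 0.028, the lowest of a range up to 0.37.

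In dMye macrophages, 0 of 33 receptors changed under PCN by edgeR, against 2.08% of all tested genes (0.940% higher and 1.14% lower). At an unadjusted p under 0.05 there were 4 (12.1%, beside 15.1% of all tested genes), and DESeq2 and limma-voom called 0 as well. None of the 33 had libraries that did not overlap, against 2.33% of all genes. The family's median log2 fold change was -0.065, beside -0.010 for all genes. That a receptor was called in FF and not in dMye does not show a difference between the genotypes. The test of that difference passed for Rxrb only, as given above, and 4 receptors had an unadjusted p under 0.05 in it (12.1%, beside 12.9% of all tested genes).

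**Figure D3:**
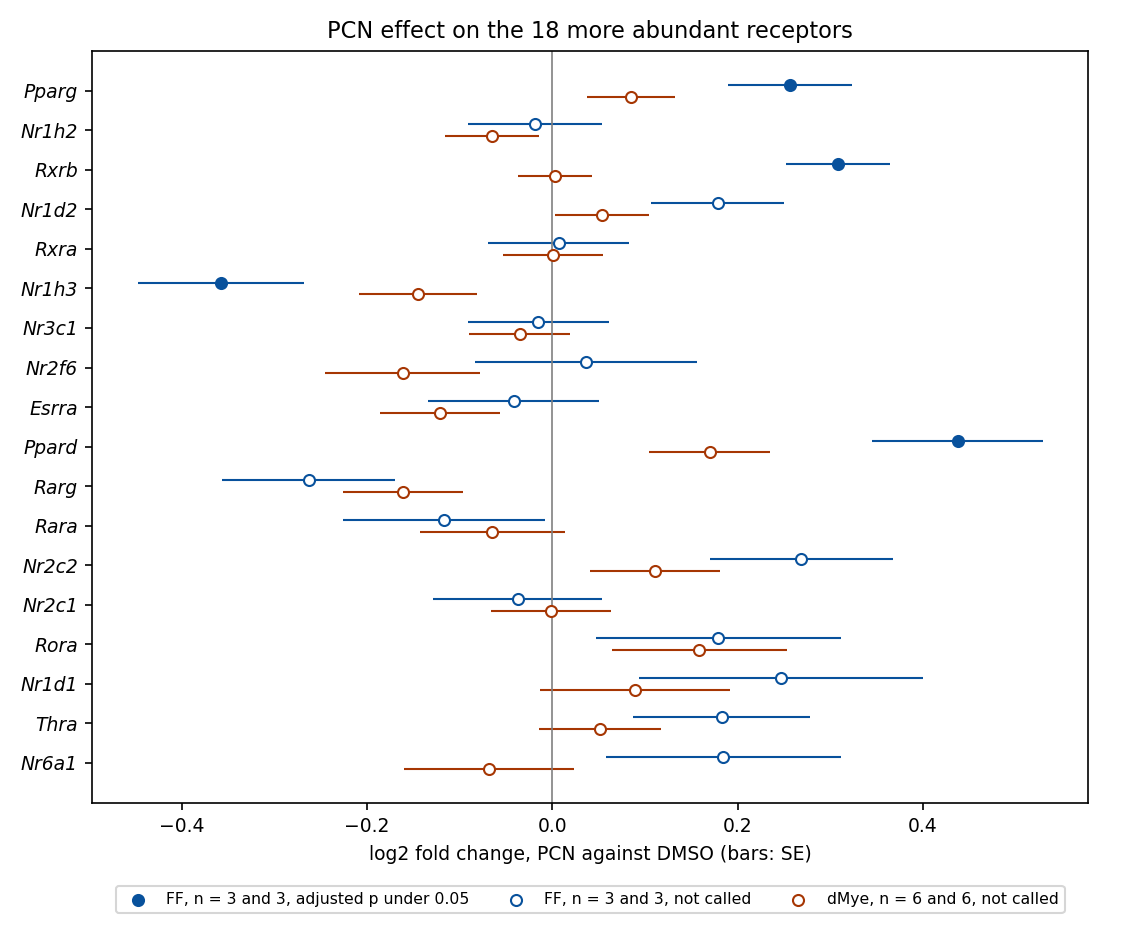
log2 fold change of PCN against DMSO for the 18 receptors with at least 100 counts in every library, in FF (blue) and dMye (red), with SE bars, ordered by level per kb. Filled dots passed an adjusted p under 0.05: Pparg, Rxrb and Ppard to the right of 0 and Nr1h3 to the left, all in FF, while no dMye dot is filled.

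The comparison of dMye with FF macrophages asked which receptor transcripts went with the genotype. Under DMSO, 10 of 33 receptors differed, 7 higher and 3 lower in dMye, against 21.8% of all tested genes (13.9% higher and 7.85% lower). Under PCN 13 of 33 differed, 6 higher and 7 lower, against 27.6% (16.2% higher and 11.4% lower). Both comparisons are also between the sexes, as the Y-linked genes show. Of the 33, 5 had under 3 FF libraries at the filter's 0.39 CPM, and 1 had under 3 dMye libraries there. Vdr and Pgr, with no FF library at that level, count among the higher receptors under DMSO, and Pgr also under PCN. Receptors whose libraries did not overlap numbered 10 under DMSO and 12 under PCN, beside 23.6% and 26.7% of all genes. The median log2 difference of the family was 0.039 and 0.068, beside 0.021 and 0.003 for all genes.

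Among the receptors that were higher in dMye, 5 were of low level: Esr1, Rarb, Nr2f2, Pgr and Vdr. Esr1, the oestrogen receptor α gene, was at 2.63, 2.31 and 2.91 CPM in FF_DMSO and at 4.73 to 8.67 CPM (median 6.47) in dMye_DMSO. Under PCN it was at 1.79, 1.51 and 1.82 CPM in FF and at 4.55 to 7.30 CPM (median 5.51) in dMye. Every dMye library lay above every FF library, and the log2 difference was 1.33 under DMSO (SE 0.18, adjusted p = 9.2e-06, edgeR) and 1.70 under PCN (SE 0.20, adjusted p = 6.7e-07). The other oestrogen receptor gene, Esr2, had a mean of 0.299 CPM in FF_DMSO and 0.515 CPM in dMye_DMSO and was not called in any comparison.

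Rarb encodes retinoic acid receptor β, whose own gene is a known retinoic acid target. It was at 0.485, 0.587 and 0.255 CPM in FF_DMSO and at 1.73 to 3.14 CPM (median 2.48) in dMye_DMSO. In FF_PCN it was at 0.155, 0.278 and 0.743 CPM and in dMye_PCN at 1.52 to 2.49 CPM (median 2.09). The genotypes did not overlap, and the log2 difference was 2.42 (SE 0.36, adjusted p = 2.4e-05, edgeR) under DMSO and 2.33 (SE 0.37, adjusted p = 5e-05) under PCN. The gene on the other strand over part of its exons, Top2b, was far more abundant, with group means of 109 to 123 CPM, and lay slightly the other way between the genotypes, at -0.13 and -0.10 on the log2 scale, without a call.

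Nr2f2 (COUP-TFII), a receptor of venous, lymphatic and mesenchymal cells, was at 0.323, 1.03 and 0.764 CPM in FF_DMSO and at 2.65 to 4.23 CPM (median 3.23) in dMye_DMSO. In the PCN groups the levels were 1.17, 1.03 and 0.537 CPM in FF and at 1.56 to 3.24 CPM (median 2.09) in dMye. There was no overlap in either, and the log2 difference was 2.17 (SE 0.31, adjusted p = 1.7e-05, edgeR) and 1.30 (SE 0.30, adjusted p = 0.0026). Its relative Nr2f1 was not called, at a mean of 0.272 CPM in FF_DMSO and 0.309 CPM in dMye_DMSO.

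Pgr, the progesterone receptor gene, had 4 counts in 1 FF_DMSO library (0.162 CPM) and 0 in the other 5 FF libraries. It had 13 to 25 counts in each dMye_DMSO library (0.478 to 0.909 CPM, median 0.712) and 12 to 31 in each dMye_PCN library (0.397 to 1.18 CPM, median 0.676). It was therefore detected in every dMye library and in 1 of 6 FF libraries. In the PCN groups Pgr was at least 17.9-fold higher in dMye, with a floor of 3 counts over the FF_PCN group (adjusted p = 5.6e-05, edgeR). Under DMSO the fitted log2 difference was 3.64 (SE 0.71, adjusted p = 0.00075), a value that rests on the 4 counts of FF_DMSO replicate 1, since the other FF_DMSO libraries were at 0.

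Vdr was at 0.202, 0.147 and 0.327 CPM in FF_DMSO and at 0.436 to 1.18 CPM (median 0.624) in dMye_DMSO, a log2 difference of 1.61 (SE 0.48, adjusted p = 0.020, edgeR) without overlap. Under PCN it was at 0.311, 0.198 and 0.206 CPM in FF and at 0.285 to 0.992 CPM (median 0.554) in dMye, which overlapped, with a log2 difference of 1.26 (adjusted p = 0.059). The DMSO call was lost without FF_DMSO replicate 1 or 2, with an adjusted p of up to 0.11 over a range from 0.011. No FF library reached the 0.39 CPM used as the filter for Vdr or Pgr, so both were tested only because of their dMye libraries.

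These 5 genes moved in the same direction as the mesothelial cell and fibroblast markers. Of those 16 markers 14 were higher in dMye under DMSO and 1 lower, beside 13.9% and 7.85% of all tested genes. Under PCN 14 were higher and 0 lower, beside 16.2% and 11.4%. The median log2 difference of those markers was 1.95 under DMSO and 2.02 under PCN. Among them Krt19, a keratin of mesothelium, had a mean of 2.32 CPM in FF_DMSO and 25.8 CPM in dMye_DMSO, and Col3a1, a fibrillar collagen of fibroblasts, 59.7 and 239 CPM. Thy1 was the marker that was lower, at 1.79 and 0.743 CPM. Markers of immune cells also differed between the genotypes, beside 21.8% of all tested genes called under DMSO and 27.6% under PCN. Of the 10 B cell markers 7 were lower in dMye under DMSO and 3 under PCN, with none higher, and their summed level was 22.2 to 27.4 CPM in FF_DMSO, 7.19 to 10.1 CPM in dMye_DMSO, 10.8 to 14.8 CPM in FF_PCN and 7.86 to 10.8 CPM in dMye_PCN. Of 7 tested T and NK cell markers 4 were lower under DMSO (summed 5.62 to 7.63 CPM in FF_DMSO and 3.05 to 4.06 CPM in dMye_DMSO), and 2 lower and 1 higher under PCN. Of 6 tested dendritic cell markers 2 were lower under DMSO (summed 8.25 to 9.62 and 3.71 to 5.54 CPM) and 1 under PCN, and of 6 tested neutrophil markers 3 and 1 (summed 158 to 162 CPM in FF_DMSO and 104 to 124 CPM in dMye_DMSO). Of the 10 macrophage markers 3 were higher and 2 lower (Cd68 and Lyz2) under DMSO. Their summed level was 10080 to 10799 CPM in FF_DMSO and 6698 to 8369 CPM in dMye_DMSO. Under PCN 7 were higher and 1, Lyz2, was lower, with sums of 7155 to 7647 CPM in FF_PCN and 6170 to 6731 CPM in dMye_PCN. The median log2 difference of the 10 was 0.033 under DMSO and 0.231 under PCN, so the lower sums do not describe most of these markers. The part of any of these cells in the receptor differences was not tested.

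**Figure D4:**
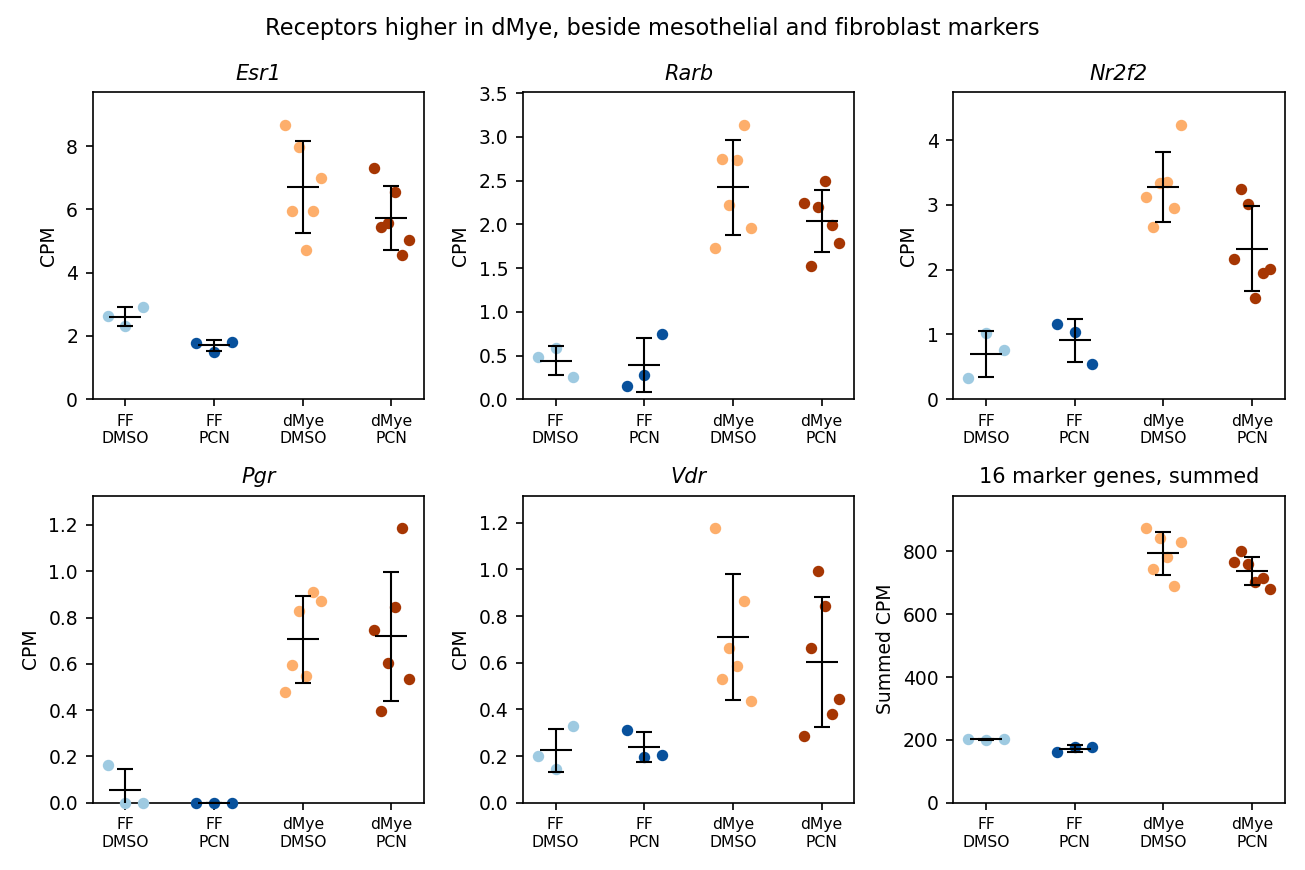
Level in CPM of Esr1, Rarb, Nr2f2, Pgr and Vdr by library, with the summed level of 16 mesothelial cell and fibroblast markers in the last panel. Dots are libraries (3, 3, 6 and 6) and black bars the mean and SD. Esr1, Rarb, Nr2f2, Pgr and the marker sum are higher in every dMye library than in every FF library, and Vdr overlaps under PCN.

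Among the more abundant receptors the clock repressor gene Nr1d1 (REV-ERBα) was higher in dMye. It was at 6.75, 7.56 and 7.05 CPM in FF_DMSO and at 9.41 to 13.9 CPM (median 12.6) in dMye_DMSO. The PCN libraries gave 7.31, 9.59 and 8.05 CPM in FF and at 10.4 to 15.4 CPM (median 13.0) in dMye. The genotypes did not overlap, and the log2 difference was 0.74 (SE 0.13, adjusted p = 0.00024, edgeR) under DMSO and 0.58 (SE 0.13, adjusted p = 0.0019) under PCN. Its close relative Nr1d2 was not called, with means of 98.1, 109, 110 and 114 CPM in FF_DMSO, FF_PCN, dMye_DMSO and dMye_PCN.

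Rora, whose product competes with the REV-ERBs for the same sites, was lower in dMye. It was at 50.6, 54.5 and 57.9 CPM in FF_DMSO and at 33.5 to 50.0 CPM (median 45.5) in dMye_DMSO, without overlap, a log2 difference of -0.37 (SE 0.11, adjusted p = 0.024, edgeR). Under PCN it was at 58.0, 68.8 and 54.7 CPM in FF and at 39.7 to 54.2 CPM (median 46.8) in dMye, a difference of -0.39 (SE 0.11, adjusted p = 0.014). The call was lost without FF_DMSO replicate 2 or 3 under DMSO (adjusted p from 0.0077 to 0.11 over the alternatives) and without FF_PCN replicate 2 under PCN (0.005 to 0.14).

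Thra, the thyroid hormone receptor α gene, lies tail to tail with Nr1d1 on chromosome 11 and shares 263 bases of exon with it, 5.7% of its own exon length and 8.5% of that of Nr1d1. It was at 11.1, 11.9 and 13.2 CPM in FF_DMSO and at 14.0 to 16.6 CPM (median 15.6) in dMye_DMSO, a log2 difference of 0.32 (SE 0.08, adjusted p = 0.0067, edgeR) without overlap. With PCN, Thra stood at 13.4, 13.7 and 13.4 CPM in FF and at 14.4 to 17.6 CPM (median 16.0) in dMye, with a difference of 0.19 that was not called (adjusted p = 0.089). Without FF_DMSO replicate 1 the DMSO call was lost at an adjusted p of 0.074, the highest of a range from 0.0027.

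Of the other retinoic acid receptor genes, Rara was lower in dMye and Rarg higher under PCN. Rara was at 22.8, 22.9 and 25.2 CPM in FF_DMSO and at 14.7 to 21.6 CPM (median 20.0) in dMye_DMSO, lower without overlap, with a log2 difference of -0.34 (SE 0.09, adjusted p = 0.012, edgeR). Under PCN it was at 21.1, 22.9 and 20.4 CPM in FF and at 15.8 to 20.8 CPM (median 18.2) in dMye, which overlapped, with a difference of -0.29 (SE 0.09, adjusted p = 0.027). Over the alternatives the adjusted p ran from 0.0034 to 0.075 under DMSO, where the call was lost without FF_DMSO replicate 3. Under PCN it ran from 0.011 to 0.16, with the call lost under upper-quartile scaling and without FF_PCN replicate 1 or 2 or dMye_PCN replicate 3 or 5. Rarg was higher in dMye under PCN, at 24.0 to 28.7 CPM (median 26.1) against the FF_PCN values given above, a log2 difference of 0.28 (SE 0.08, adjusted p = 0.013). That call was lost without FF_PCN replicate 1 or 2 (adjusted p from 0.0036 to 0.094). Under DMSO Rarg was at 26.0 to 31.6 CPM (median 30.1) in dMye, which overlapped with FF, and was not called (0.18, adjusted p = 0.12).

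Rxrb, Ppard, Nr2c2 and Pparg were lower in dMye than in FF under PCN. Rxrb differed by -0.27 on the log2 scale (SE 0.05, adjusted p = 0.00022, edgeR), Ppard by -0.34 (SE 0.08, adjusted p = 0.0024) and Nr2c2 by -0.39 (SE 0.08, adjusted p = 0.0012). Pparg differed by -0.19 (SE 0.06, adjusted p = 0.015), with overlapping libraries, and its call was lost under upper-quartile scaling and without FF_PCN replicate 2 (adjusted p from 0.0032 to 0.091). Under DMSO the difference was 0.04 for Rxrb, -0.07 for Ppard and -0.02 for Pparg, none of them called, and -0.24 for Nr2c2 (adjusted p = 0.052, edgeR). That value of Nr2c2 passed with RLE scaling (adjusted p = 0.039), with no filter (0.036), with DESeq2 (0.030), with limma-voom (0.045) and without dMye_DMSO replicate 3 or 6 (0.038 and 0.0085), in a range of 0.0085 to 0.22. These differences under PCN and the PCN effects in FF share the FF_PCN libraries.

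Nr2c2 was at 66.7, 68.1 and 76.6 CPM in FF_DMSO and at 84.5, 84.7 and 81.5 CPM in FF_PCN. In dMye it was at 50.3 to 73.8 CPM (median 59.1) under DMSO and at 56.0 to 77.1 CPM (median 64.9) under PCN, so that the genotypes were apart under PCN and overlapped under DMSO. Nr6a1 (GCNF), a germ cell receptor, was at 7.15, 8.25 and 7.67 CPM in FF_DMSO and at 8.82, 9.20 and 7.81 CPM in FF_PCN. In dMye it was at 5.50 to 8.18 CPM (median 6.75) under DMSO and at 5.70 to 7.44 CPM (median 6.60) under PCN. It too differed without overlap under PCN, by -0.44 on the log2 scale (SE 0.11, adjusted p = 0.0044, edgeR), and was not called under DMSO (-0.19, adjusted p = 0.24).

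Nr4a3 (NOR1), the third immediate-early member, was at 3.68, 1.54 and 1.02 CPM in FF_DMSO and at 0.514 to 1.16 CPM (median 0.820) in dMye_DMSO. The groups overlapped, and FF_DMSO replicate 1 stood highest. The log2 difference of -1.37 (SE 0.35, adjusted p = 0.0060, edgeR) became -0.69 with an adjusted p of 0.18 without that library, while over all alternatives the adjusted p ran from 0.0012 to 0.18. Under PCN the values were 0.894, 1.55 and 1.49 CPM in FF and 0.733 to 1.57 CPM (median 1.10) in dMye, with no call (-0.23, adjusted p = 0.68).

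**Figure D5:**
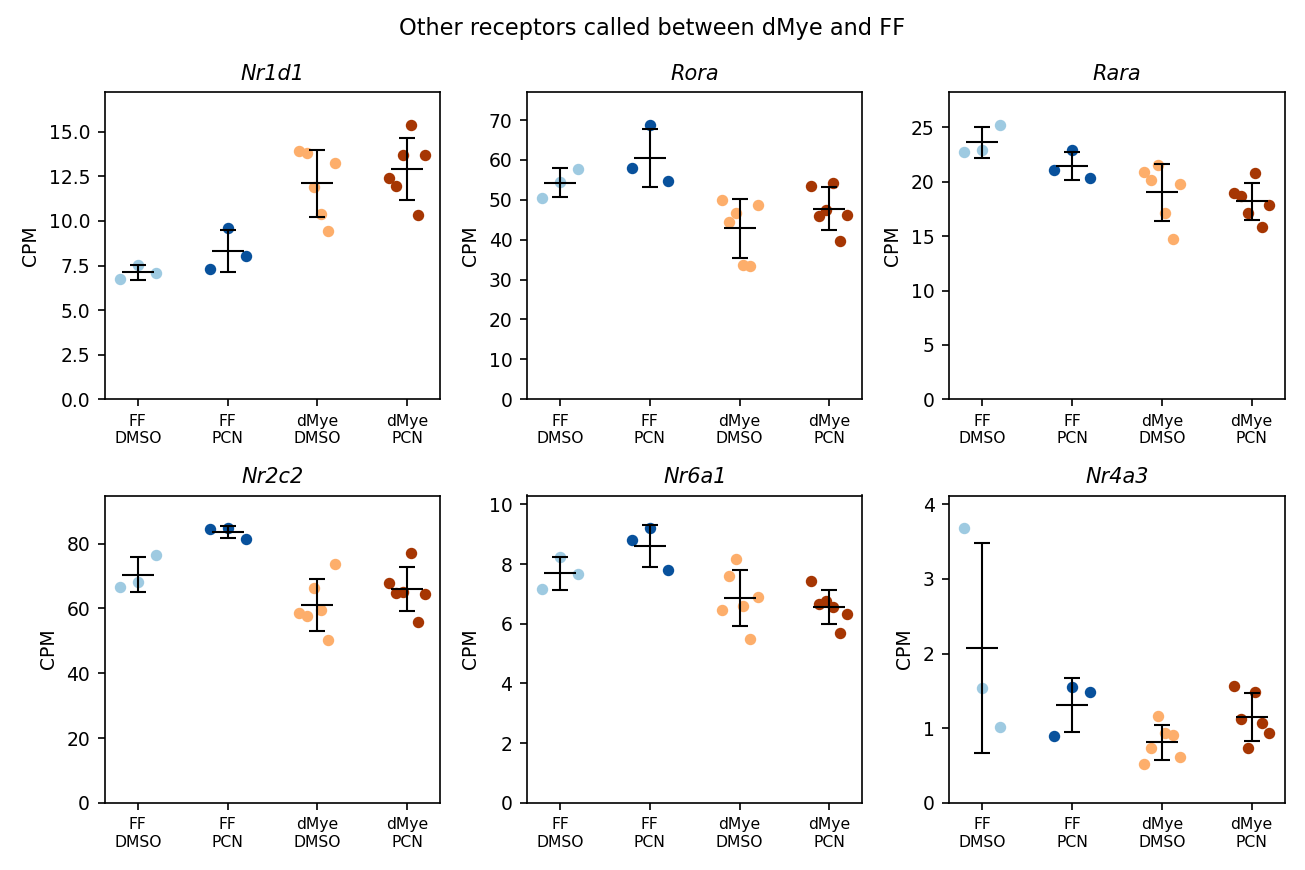
Level in CPM by library of 6 other receptors called between dMye and FF under DMSO, PCN or both (dots: 3, 3, 6 and 6 libraries; black: mean and SD). Nr1d1 is higher in dMye and Rora and Rara are lower under DMSO and PCN, with overlap for Rara under PCN. Nr2c2 and Nr6a1 are lower without overlap under PCN, and overlap without a call under DMSO. For Nr4a3, 1 FF_DMSO library at 3.68 CPM sets the FF_DMSO mean apart.

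In all, 17 of the 33 tested receptors were called in at least 1 of the 5 comparisons and 16 in none, where 38.5% of all tested genes were called in at least 1. Comparisons that share libraries enter this count, and so do Vdr and Pgr, tested only because of their dMye libraries. The 16 were Thrb, Nr1d2, Rorb, Nr1h2, Nr1h4, Nr1i3, Rxra, Nr2c1, Nr2f1, Nr2f6, Esr2, Esrra, Nr3c1, Nr3c2, Nr4a1 and Nr4a2. Esrra, a receptor of mitochondrial genes, had means of 32.0, 30.6, 35.0 and 32.2 CPM in FF_DMSO, FF_PCN, dMye_DMSO and dMye_PCN, and Nr2c1 20.7, 19.9, 19.8 and 19.8 CPM. Nr1h2 was at 98.3 to 122 CPM (median 105) in dMye_DMSO and at 97.6 to 106 CPM (median 102) in dMye_PCN, overlapping the FF libraries. The mineralocorticoid receptor gene Nr3c2 was low throughout, with means of 0.600, 0.636, 0.859 and 0.754 CPM.

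Coregulators, the proteins that receptors recruit to activate or repress genes, were tested for all 24 listed genes. PCN changed 2 of 24 in FF (8.33%, beside 13.8% of all tested genes): the corepressor gene Nrip1 rose by 0.35 on the log2 scale (SE 0.10, adjusted p = 0.021, edgeR), from a mean of 40.6 to 50.9 CPM, and Ncoa4 fell by 0.22 (SE 0.05, adjusted p = 0.0088), from 492 to 415 CPM. In dMye PCN changed 0 of 24 by edgeR (2.08% of all tested genes), with 2 at an unadjusted p under 0.05 (15.1% of all tested genes). Between genotypes under DMSO, 3 were lower in dMye and 0 higher (12.5%, beside 21.8% of all tested genes): the coactivator gene Ncoa2 (-0.47, SE 0.12, adjusted p = 0.0060), Tbl1xr1, a subunit of the NCoR corepressor complex (-0.38, SE 0.09, adjusted p = 0.0065), and Ncoa4 (-0.22, SE 0.05, adjusted p = 0.0018). The median over the list was -0.214, beside 0.021 for all genes, and 1 of 24 had a positive value, beside 7122 of 13409 tested genes. Under PCN, Nrip1 (-0.37, SE 0.09, adjusted p = 0.0024), Tbl1xr1 (-0.33, SE 0.09, adjusted p = 0.014) and Med1, a subunit of the Mediator complex (-0.26, SE 0.08, adjusted p = 0.016), were lower in dMye and none was higher (12.5%, beside 27.6%). The list's median there was -0.162, beside 0.003 for all genes, and 2 of 24 had a positive value, beside 6775 of 13409.

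Genes that make, carry or degrade receptor ligands were tested for 19 of 27 listed. In FF 3 of 19 were called (15.8%, beside 13.8% of all tested genes): PCN raised Dio2, the deiodinase that activates thyroid hormone (0.25, SE 0.07, adjusted p = 0.029, edgeR). It lowered Cyp27a1, which makes 27-hydroxycholesterol (-0.65, SE 0.12, adjusted p = 0.00092), and Dhrs3, which reduces retinaldehyde (-0.20, SE 0.05, adjusted p = 0.0075). In dMye 0 of 19 were called by edgeR (2.08% of all tested genes), with 4 at an unadjusted p under 0.05 (15.1% of all tested genes). Between genotypes 10 were higher and 3 lower in dMye under DMSO, and 9 higher and 3 lower under PCN (68.4% and 63.2%, beside 21.8% and 27.6%). The retinoic acid synthesis gene Aldh1a2 had a mean of 6.43 CPM in FF_DMSO and 27.5 CPM in dMye_DMSO (log2 difference 2.07, SE 0.11, adjusted p = 2.4e-12). The oxysterol hydroxylase gene Cyp7b1 was higher too (3.04, SE 0.42, adjusted p = 1.1e-05), and the thyroid hormone transporter gene Slc16a10 was lower (-0.33, SE 0.05, adjusted p = 2.2e-05). Aldh1a2 moved with the mesothelial cell and fibroblast markers given above, and the part of those cells was not tested.

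Genes known as receptor targets gave the following counts under PCN in FF, where 13.8% of all tested genes were called (6.82% higher and 6.98% lower). Of 7 LXR targets 4 rose and 1 fell, among them Abcg1, a cholesterol exporter (0.57, SE 0.07, adjusted p = 1e-05, edgeR), and Mylip, a ubiquitin ligase gene (0.68, SE 0.07, adjusted p = 1.1e-06), while the transcript of LXRα fell. Of 7 PPAR targets 0 rose and 3 fell, with Cpt1a, the gate of mitochondrial fatty acid oxidation, at -0.70 (SE 0.06, adjusted p = 6.8e-08), while Ppard and Pparg rose. Of 7 glucocorticoid targets 3 rose, with Dusp1, a MAP kinase phosphatase, at 0.68 (SE 0.06, adjusted p = 9e-08), while Nr3c1 was not called. Of 6 targets of the REV-ERBs and RORs 2 rose and 1 fell, of 6 tested retinoid targets 1 rose and 1 fell, and of 2 tested vitamin D targets 1 fell. Of 10 listed PXR targets 5 were tested, 0 rose and 2 fell: the drug exporter genes Abcb1b (-0.42, SE 0.08, adjusted p = 0.00059) and Abcc3 (-0.56, SE 0.12, adjusted p = 0.0033).

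In dMye no receptor was called under PCN, beside 2.08% of all tested genes (0.940% higher and 1.14% lower). There PCN raised 3 and lowered 1 of 7 LXR targets, with Abcg1 at 0.47 (SE 0.05, adjusted p = 2.3e-05, edgeR). It lowered 2 of 7 PPAR targets, with Cpt1a at -0.38 (SE 0.04, adjusted p = 2.3e-05), and raised 1 of 7 glucocorticoid targets, Dusp1 (0.20, SE 0.04, adjusted p = 0.015). It also lowered 1 of 6 REV-ERB and ROR targets and changed 0 of the retinoid, vitamin D and PXR targets. Of these lists 3 of 6, 1 of 2 and 2 of 5 tested genes had an unadjusted p under 0.05, beside 15.1% of all tested genes. Between the genotypes the target lists went both ways, beside 21.8% of all tested genes called under DMSO and 27.6% under PCN. Under DMSO, 2 of 7 LXR targets were higher in dMye and 3 lower, 0 and 4 of 7 PPAR targets, 2 and 0 of 7 glucocorticoid targets, 2 and 1 of 6 REV-ERB and ROR targets, 4 and 0 of 6 retinoid targets, 1 and 1 of 2 vitamin D targets and 1 and 0 of 5 PXR targets. Under PCN the counts in the same order were 2 and 5, 0 and 3, 0 and 2, 1 and 1, 4 and 1, 1 and 1, and 2 and 0. Among the PPAR targets Plin2, a lipid droplet coat gene, was lower under DMSO, at a mean of 3362 CPM in FF and 2285 CPM in dMye (-0.58, SE 0.05, adjusted p = 3.1e-08, edgeR). Among the retinoid targets Stra6, a retinol transporter gene, was higher, from 0.457 to 3.77 CPM (2.99, SE 0.32, adjusted p = 2.4e-07), and Rarb is itself 1 of the 4. The retinoid target Tgm2, a transglutaminase gene, was higher in dMye under DMSO (0.16, SE 0.04, adjusted p = 0.010, edgeR) and lower under PCN (-0.13, SE 0.04, adjusted p = 0.028). Its PCN effect differed between the genotypes (-0.29, SE 0.06, adjusted p = 0.021), as 1 of 6 retinoid targets. The same test of the difference called 2 of 7 PPAR targets (Angptl4 and Cpt1a, above 0) and 2 of 7 glucocorticoid targets (Dusp1 and Sgk1, below 0). It also called 1 of 5 PXR targets (Abcb1b, above 0), beside 1.42% of all tested genes. Of the LXR, REV-ERB and ROR, and vitamin D targets it called 0. For these targets, too, genotype and sex cannot be told apart in that test. The mesothelial cell and fibroblast markers were higher in dMye beside these lists, 14 of 16 in each treatment, and their part was not tested. A link between the levels of receptors and of their targets was not tested.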

How the data were processed

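The deposited table holds estimated counts per gene for 18 libraries; 72.3% of the values above 0 are not whole, and neither the labels nor the file header names the authors' aligner or counter (the build was mm10, per the submitters' processing notes). Values were rounded, and 3287 of 21831 rows were then 0 throughout. Pairs of replicates within a group all differed by more than sampling noise (chi-square per gene 3.75 to 43.7). Genes passing filterByExpr (13409) were tested with edgeR 4.0.16 (TMM, robust quasi-likelihood F test, R 4.3.3) in 1 model of all 4 groups, with Benjamini-Hochberg adjustment over all of them and a call at adjusted p under 0.05. The script was tested on simulated data. SE is the absolute log2 fold change over the square root of F, and CPM uses the library total. Exon lengths and positions came from GENCODE on GRCm38. Named were members called in at least 1 comparison, 7 fixed members (Nr1i2, Nr1h2, Nr1h3, Pparg, Rxra, Nr3c1, Nr4a1) and up to 4 called genes per other list and comparison by smallest p; other genes, such as Esr2, Esrra, Krt19, Col3a1 and Thy1, were chosen after their values were seen. An allele that all 4 groups carry and 1 listed gene are not reported here. The members and lists were chosen with earlier results of these data known. Alternatives were RLE and upper-quartile scaling, other count filters, DESeq2 1.42.0, limma-voom (limma 3.58.1), fits of the compared groups only, and leaving out each library.

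Of the marker lists without values above, eosinophil and mast cell markers summed to 4.86 to 12.5 CPM over all libraries, with 0 of 5 tested called between genotypes under DMSO by edgeR (0 at an unadjusted p under 0.05) and 1 higher in dMye under PCN. Endothelial markers summed to 136 to 204 CPM, with Cldn5 at 0. Of 4 tested, 1 (Kdr) was called higher in dMye under each treatment, and it alone had a positive value. The median log2 difference of the 4 was -0.199 under DMSO and -0.735 under PCN. Of all tested genes 13.9% were called higher in dMye under DMSO and 16.2% under PCN.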

Additional observations from a re-analysis of the deposited data

Results flagged for a closer look

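The PCN effect on Rxrb differed between the genotypes by -0.305 on the log2 scale (adjusted p = 0.026, edgeR), as the fitted test of the difference showed: the effect was 0.31 in FF and 0.00 in dMye. No other receptor passed that test, which compares the sexes as well as the genotypes. The Rxrb call was lost in 8 of 24 alternatives, among them those without each of the 6 FF libraries in turn (adjusted p up to 0.096, edgeR). In a search of 66 groups of 6 libraries (33 receptors in dMye_DMSO and dMye_PCN), 0 held a library far from the others by Dixon's test, where chance gives about 1 group in 20.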

How the results depend on the processing

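Of 28 receptor calls, 17 held in each of the alternatives run for them and 11 were lost in at least 1, and 0 called values changed sign. Leaving out 1 library gave 3 to 5 called receptors for PCN in FF, 0 to 0 for PCN in dMye, 7 to 12 for dMye against FF under DMSO, 9 to 14 under PCN, and 0 to 1 for the interaction. It gave 1 to 2, 0 to 1, 3 to 7, 2 to 8 and 0 to 0 coregulators in the same order. With no filter on low counts the interaction called 0 receptors. DESeq2 called 5 coregulators between genotypes under DMSO and 5 under PCN, and the fit of the compared groups alone 5 under PCN. Values near 0 changed sign without being called: with upper-quartile scaling Pparg between genotypes under DMSO was 0.019 and Rxrb under PCN in dMye -0.015, and leaving out 1 library gave -0.059 to 0.006 and -0.010 to 0.026 in turn, with 0.006 without FF_DMSO replicate 2 and Rxrb below 0 without dMye_DMSO replicate 1, 4 or 6 (-0.010, -0.008 and -0.007) or dMye_PCN replicate 1, 3 or 5 (-0.005, -0.008 and -0.005). The cause was not tested, beyond the fewer samples or other genes each used. Rarg was called in FF under PCN by DESeq2 (-0.27, adjusted p = 0.041) and with upper-quartile scaling (-0.30, adjusted p = 0.036), and Nr2c2 in the fit of the FF groups alone (0.25, adjusted p = 0.0062). Between genotypes under DMSO, Nr2c2 passed in 6 of 16 alternatives. No paired analysis was possible because the labels give no replicate numbers that groups share. Counts under 100 in some library limit 15 of the 33 tested receptors.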
